A study of Mus musculus with 8 samples.

Results

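The data are RNA levels in mouse monocytes with and without the olfactory receptor gene Olfr2, and no receptor signal was measured. The 10 genes followed here belong to steps that can carry an olfactory receptor signal, from the receptor's transport to the breakdown of cAMP. Chosen by name, they were Rtp4, Ric8b, Gnal, Gnas, Adcy3, Adcy6, Adcy7, Adcy9, Pde4b and Pde4d, out of 56748 genes in the deposited count table. The libraries came from Ly6Chigh monocytes, the inflammatory monocyte subset, that were sorted from mouse spleens 7 days after induction of an aneurysm. There were 4 from Olfr2 KO mice and 4 from WT mice, so every mouse of both genotypes had been through the induction. The labels do not name the KO allele, the strain, sex or age of the mice, the way the aneurysm was induced, or whether each library is 1 animal. The p-values therefore measure the spread between libraries.

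In an olfactory sensory neuron, transport proteins of the RTP and REEP families bring olfactory receptors to the cell surface. A bound receptor activates Golf, whose alpha subunit is Gnal, and Golf switches on adenylyl cyclase 3 (Adcy3), which makes cAMP. Ric8b assists the folding of Golf and Gs alpha subunits. Cells outside the nose can pass a receptor's signal through Gs (Gnas) and other membrane adenylyl cyclases, and PDE4 phosphodiesterases (Pde4b, Pde4d) break cAMP down. Rtp4 is also an interferon-induced gene, and Pde4b is induced by inflammatory signals and by cAMP itself in many leukocytes.

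Deposited totals ran between 17258427 and 21728794 reads in KO libraries and between 16111725 and 19048245 in WT libraries. Levels are CPM, the usual count-per-depth unit of RNA-seq, over library sizes scaled by TMM, the trimmed-mean method of edgeR, and a count of 3 came to between 0.139 and 0.186 CPM in a library. Markers of classical monocytes were detected, 12 of 12, with a summed level of 137750 to 178379 CPM in KO and 114890 to 133182 CPM in WT. Neutrophil markers, also 12 of 12, summed to 2223, 3429, 756 and 579 CPM in KO 1 to 4, against 264 to 568 CPM in WT. Olfr2 had 0 reads in all 8 libraries, so its counts could not check the genotype labels. Each library carries a number in its column name, by which replicates 1 and 2 of each genotype form a lower series and replicates 3 and 4 a higher one; no label explains these numbers.

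Of the 10 genes, 3 carry the letters TGACGT, the core of the cAMP response element that CREB binds, just before an annotated transcription start, and these stretches are shown because the element links a gene's promoter to the pathway it serves. Each line gives 100 bases up to the start, 5′ to 3′ on the gene's strand, from RefSeq on GRCm38.p6, with the core or its reverse complement in capitals. The Pde4b stretch is chr4:102421455-102421554 on the plus strand, the Ric8b stretch is chr10:84917513-84917612 on the plus strand, and the Adcy9 stretch is chr16:4420499-4420598 on the minus strand.
Pde4b: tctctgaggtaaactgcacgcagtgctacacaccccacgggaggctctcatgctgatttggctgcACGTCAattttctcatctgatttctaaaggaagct
Ric8b: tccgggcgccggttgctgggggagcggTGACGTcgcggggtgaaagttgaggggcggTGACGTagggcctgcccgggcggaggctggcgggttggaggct
Adcy9: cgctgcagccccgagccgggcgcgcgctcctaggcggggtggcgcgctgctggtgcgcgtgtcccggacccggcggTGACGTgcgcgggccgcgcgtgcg

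The core was searched on both strands in windows of 300 bases around each start. It was present in 3 of 16 windows of the 7 members with an entry, against 7.51% of all 32851 windows. Ric8b had 2 matches, and 2.17% of all windows had 2 or more. The full palindrome TGACGTCA, which contains the core, was in 0 of the 16 windows and in 1.79% of all. A match is a description of the letters and not a bound site, and the windows without one are not evidence about CREB.

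Of the 10 genes 5, Rtp4, Ric8b, Gnas, Adcy7 and Pde4b, had enough reads to be tested, and none changed between genotypes at an adjusted p under 0.05 in edgeR's quasi-likelihood test. DESeq2 and limma-voom also called 0 of them, but limma-voom called 0 of all tested genes, so its result says nothing particular about these 5. Across the table, edgeR called 119 of 11222 genes, or 1.06%, with 25 higher and 94 lower in KO. That split was 101 higher and 150 lower with the number series as covariate, 73 higher and 26 lower in the lower-numbered series alone, and 325 higher and 459 lower in DESeq2. At an unadjusted p under 0.05, 2 of the 5, Gnas and Rtp4, passed, where 20.9% of all tested genes did.

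Rtp4, the transport protein, at chr16:23520291-23614222 on the plus strand of GRCm38, had the highest level of the 10 genes. It had 371, 210, 390 and 365 CPM in KO 1 to 4, against 493, 411, 403 and 488 CPM in WT 1 to 4. All KO values lay below all WT values, with KO 2 far below the other KO libraries. The means were 334 ± 83.2 CPM in KO and 449 ± 48.4 CPM in WT (SD, n = 4 each), and edgeR gave a log2 change of -0.43 ± 0.17 (SE; 95% interval -0.80 to -0.05; edgeR adjusted p = 0.189). Without KO 2 the log2 change was -0.25 ± 0.12 (adjusted p = 0.358). In these bulk libraries, fewer cells with a transcript and less of it per cell cannot be told apart.

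Ric8b, the chaperone of Golf and Gs alpha subunits, had 3.95, 4.06, 4.34 and 3.62 CPM in KO 1 to 4, against 3.49, 2.65, 3.24 and 2.85 CPM in WT 1 to 4. The libraries of the genotypes did not overlap, with KO higher. The means were 3.99 ± 0.298 CPM in KO and 3.06 ± 0.379 CPM in WT (SD, n = 4 each), and edgeR gave a log2 change of 0.38 ± 0.20 (SE; 95% interval -0.05 to 0.81; edgeR adjusted p = 0.288).

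Ric8b and Rtp4 made 2 of 5 tested members with no overlap between genotypes, a state that 11.4% of all tested genes shared. This separation depends on the scale. In CPM over plain library totals 0 of the 5 were separated, against 11.5% of all tested genes. There, the highest KO library had 395 CPM of Rtp4 and the lowest WT library 393 CPM, and the lowest KO library had 3.59 CPM of Ric8b and the highest WT library 3.70 CPM.

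**Figure D1:**
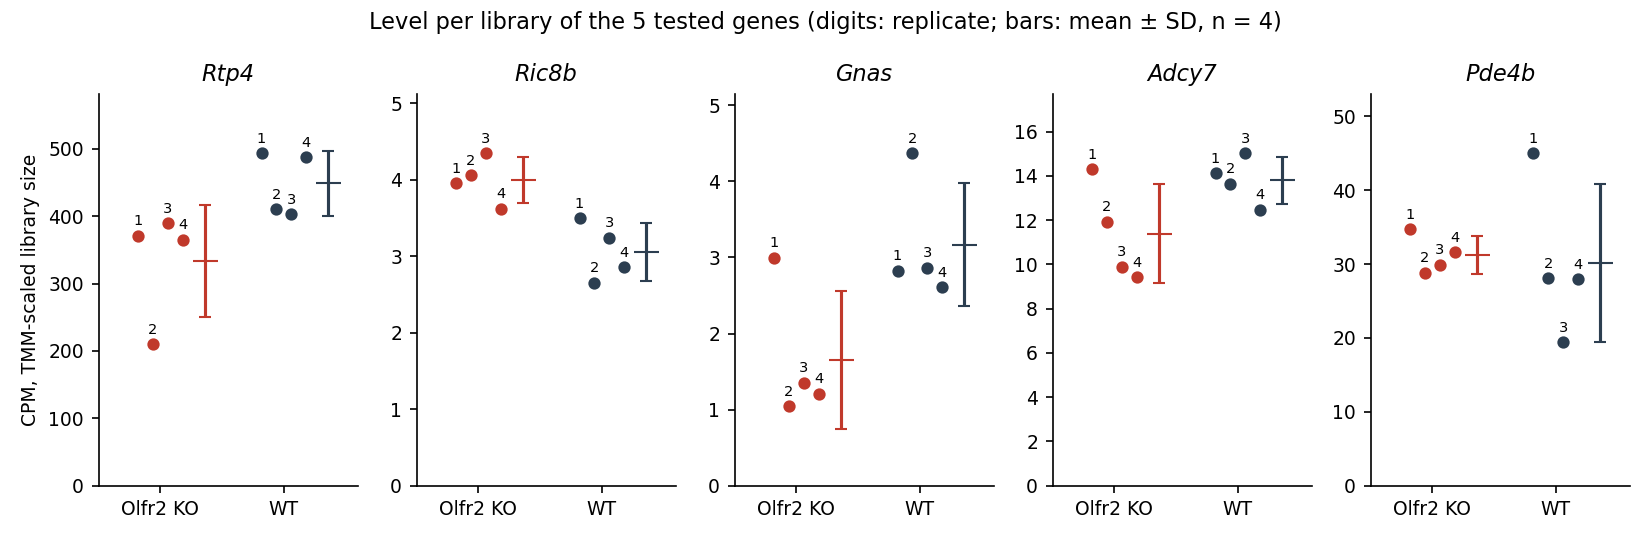
Level in each library of the 5 tested genes, in CPM over TMM-scaled library size on a linear axis that starts at 0, with Olfr2 KO left of WT, replicate numbers beside the points, and mean ± SD (n = 4) as bars. Rtp4 and Ric8b do not overlap between genotypes on this scale, while Gnas, Adcy7 and Pde4b do.

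Gnas, the Gs alpha subunit, had 2.99, 1.05, 1.35 and 1.21 CPM in KO 1 to 4, against 2.83, 4.37, 2.86 and 2.61 CPM in WT 1 to 4. KO 2, KO 3 and KO 4 were below every WT library, and KO 1 lay among them. The means were 1.65 ± 0.905 CPM in KO and 3.17 ± 0.810 CPM in WT (SD, n = 4 each), and edgeR gave a log2 change of -0.95 ± 0.34 (SE; 95% interval -1.68 to -0.23; edgeR adjusted p = 0.140). Without KO 1 it was -1.39 ± 0.30 (edgeR adjusted p = 0.0521), and without WT 2, the highest WT library, -0.75 ± 0.35 (0.237). With offsets for transcript length and GC content it was -0.64 ± 0.29 (0.281).

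The Gnas counts are small, 17 to 50 reads in KO libraries and 42 to 89 in WT libraries, and 2457 of its 11186 exon bases also belong to other genes. Gnas lies at chr2:174284320-174346744 on the plus strand of GRCm38. The antisense model Gm20721, on the minus strand, shares 1469 of its 1484 exon bases with Gnas, and these cover 85.4% of Gnas-208, a principal transcript of 1716 bases, and 37.6% of Gnas-202, the other one, but 0% of Gnas-204, Gnas-210 and Gnas-219. Gm20721 itself had 1 read in the 8 libraries. The strand setting of the read counting is not given in the sources used here, and its part in the low Gnas level was not tested. The Gnas values above are therefore those of the reads assigned to Gnas, not a measure of all Gs alpha mRNA.

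Gnal, the Golf alpha subunit, was near the limit of counting. It had 2, 0, 4 and 2 reads in KO 1 to 4, against 2, 6, 2 and 0 reads in WT 1 to 4. Pooled over 4 libraries this came to 0.105 CPM in KO (95% Poisson interval 0.0455 to 0.208) and 0.134 CPM in WT (0.0644 to 0.247), intervals that cover counting error only. Per kilobase of exon, Gnai2, the alpha subunit that inhibits cyclases, held 63.3 ± 2.08% of the summed level of the 16 alpha subunit genes in KO and 61.3 ± 2.51% in WT (SD, n = 4 each). By the reads assigned to it, Gnas held 0.0871 ± 0.0496% in KO and 0.182 ± 0.0396% in WT. This share has the limits of the Gnas reads given above and is not the share of all Gs alpha mRNA. It also rests on an exon length of 11186 bases, where the longest Gnas transcript has 3947.

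Adcy7, a membrane adenylyl cyclase of blood cells, was the only one of the 10 cyclase genes to pass the filter. It had 14.3, 11.9, 9.90 and 9.43 CPM in KO 1 to 4, against 14.1, 13.6, 15.02 and 12.5 CPM in WT 1 to 4. The genotypes overlapped, since KO 1 was above 3 of the 4 WT libraries. The means were 11.4 ± 2.23 CPM in KO and 13.8 ± 1.06 CPM in WT (SD, n = 4 each), and edgeR gave a log2 change of -0.28 ± 0.17 (SE; 95% interval -0.65 to 0.08; edgeR adjusted p = 0.360). With offsets for transcript length and GC content the sign turned, to 0.05 ± 0.17 (adjusted p = 0.913).

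Adcy7 made up 93.8 ± 1.70% of the summed cyclase level per kilobase in KO and 92.8 ± 6.42% in WT (SD, n = 4 each), and between 84.8% and 99.5% in single libraries. Adcy4, which is no member, had 4.20 ± 2.14% in KO and 3.47 ± 2.93% in WT, and Adcy9 had 1.17 ± 0.512% in KO and 3.18 ± 3.04% in WT, so their order in WT lies within the spread.

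Adcy9, a widely expressed cyclase, had 1, 2, 3 and 2 reads in KO 1 to 4, against 4, 0, 9 and 13 reads in WT 1 to 4. The WT libraries ranged from none to the highest value of all, so the genotypes overlapped. The pooled level was 0.105 CPM in KO (95% Poisson interval 0.0455 to 0.208) and 0.349 CPM in WT (0.228 to 0.512), but the difference over libraries gave p = 0.229 in a two-sided exact permutation test of 70 assignments, and 0.200 over plain library totals. Counting error alone understates the spread between WT libraries here.

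Adcy3, the olfactory cyclase, had 0, 1, 2 and 1 reads in KO 1 to 4, against 0, 0, 0 and 3 reads in WT 1 to 4. Its exons share 22.1% of their bases with Cenpo on the opposite strand, so even these reads are uncertain. Adcy6, a cyclase inhibited by calcium, had 0 reads in every library, which by a limit of 3 counts per genotype allows a pooled level of up to 0.0395 CPM in KO and 0.0403 CPM in WT. Neither cyclase was detectable beyond a few reads at this depth.

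**Figure D2:**
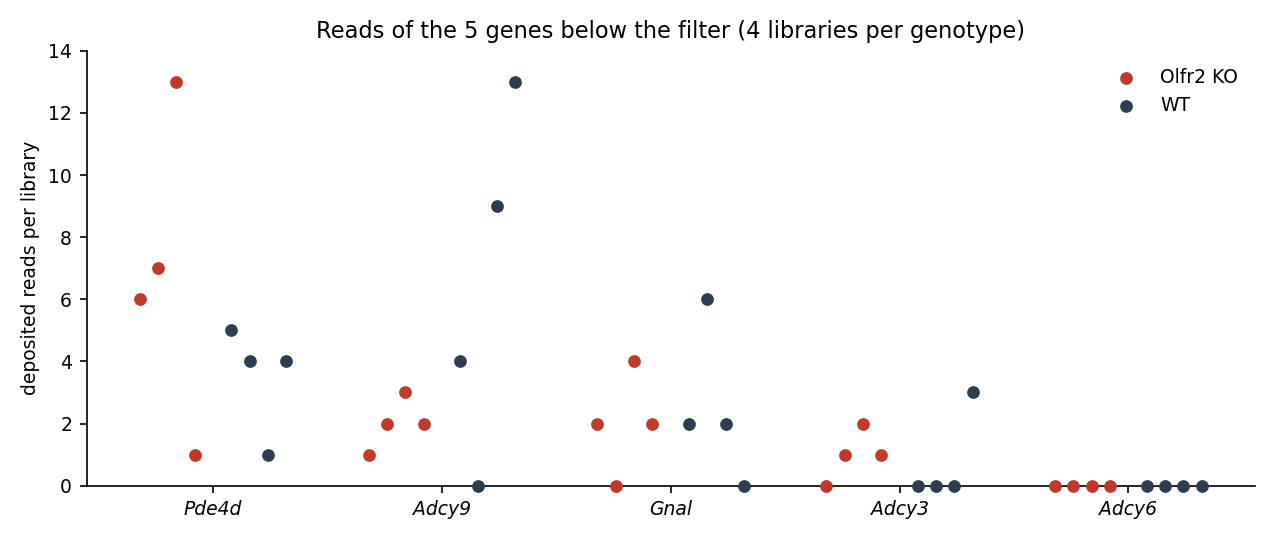
Deposited reads per library of the 5 genes below the filter on low counts, on a linear axis, with Olfr2 KO left of WT in each gene and 1 point per library. Adcy9 reaches 13 reads in WT and 3 in KO, Pde4d reaches 13 in KO and 5 in WT, and Adcy6 is at 0 throughout.

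Pde4b, the main PDE4 gene of inflammatory leukocytes, had 34.7, 28.8, 29.9 and 31.6 CPM in KO 1 to 4, against 45.0, 28.1, 19.4 and 28.0 CPM in WT 1 to 4. The KO values lay inside the range of the WT values, whose highest and lowest libraries were WT 1 and WT 3. The means were 31.3 ± 2.57 CPM in KO and 30.1 ± 10.7 CPM in WT (SD, n = 4 each), and edgeR gave a log2 change of 0.05 ± 0.21 (SE; 95% interval -0.40 to 0.50; edgeR adjusted p = 0.905). Pde4b supplied 62.1 ± 1.58% of the summed level per kilobase of the 16 cAMP phosphodiesterase genes in KO and 56.1 ± 9.71% in WT (SD, n = 4 each).

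Pde4d, a phosphodiesterase of the same family, had 6, 7, 13 and 1 reads in KO 1 to 4, against 5, 4, 1 and 4 reads in WT 1 to 4. The pooled level was 0.356 CPM in KO (95% Poisson interval 0.234 to 0.518) and 0.188 CPM in WT (0.103 to 0.315), with overlapping libraries and p = 0.257 in the two-sided exact permutation test of 70 assignments. Gnal gave p = 0.80 and Adcy3 p = 1.00 in the same exact permutation test, whose smallest possible p is 0.0286.

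Ordered by CPM per kilobase of exon, Rtp4 averaged 157 ± 39.1 in KO and 211 ± 22.7 in WT (SD, n = 4 each), far above all other members. This level is only roughly comparable between genes, since it depends on the exon length used. It also depends on the reads assigned to a gene, which for Gnas have the limits given above. Pde4b had 2.96 ± 0.243 in KO and 2.85 ± 1.02 in WT, and Adcy7 had 1.69 ± 0.331 in KO and 2.05 ± 0.158 in WT, 2 genes whose libraries overlapped. Ric8b, with 0.758 ± 0.0566 in KO and 0.580 ± 0.0719 in WT, was below Adcy7 and above Gnas with no overlap of their libraries. The order of Ric8b and Gnas depends on the length used: per kilobase of the longest transcript, Ric8b ranged from 0.754 to 1.24 and Gnas from 0.265 to 1.11 over the 8 libraries, which overlap, and in WT 2 Gnas was the higher. From Gnas, which per kilobase of exon had 0.148 ± 0.0809 in KO and 0.283 ± 0.0724 in WT, down through Adcy9, Pde4d, Gnal, Adcy3 and Adcy6, each gene overlapped its neighbour.

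The 5 tested members were also compared within each number series, because the libraries with many neutrophil reads, KO 1 and KO 2, both belong to the lower one. The genotype difference of Rtp4 was -0.65 ± 0.28 in the lower and -0.24 ± 0.15 in the higher series (log2 change ± SE). Gnas had -0.84 ± 0.50 and -1.09 ± 0.34, and Ric8b had 0.37 ± 0.32 and 0.38 ± 0.29, in the same order of series. Adcy7 had -0.09 ± 0.21 and -0.51 ± 0.22, and Pde4b had -0.21 ± 0.24 and 0.38 ± 0.22. None of the 5 showed a genotype difference that differed between series in edgeR's interaction test, with adjusted p between 0.447 and 1.00, where 0.784% of all tested genes did. Without KO 1 and KO 2, Rtp4 stood at -0.24 ± 0.14 and Gnas at -1.30 ± 0.35 (edgeR adjusted p = 0.126 for Gnas). Adcy7 then had -0.50 ± 0.20, against -0.28 ± 0.17 in all 8 libraries, while Ric8b had 0.39 ± 0.27 and Pde4b 0.04 ± 0.27.

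**Figure D3:**
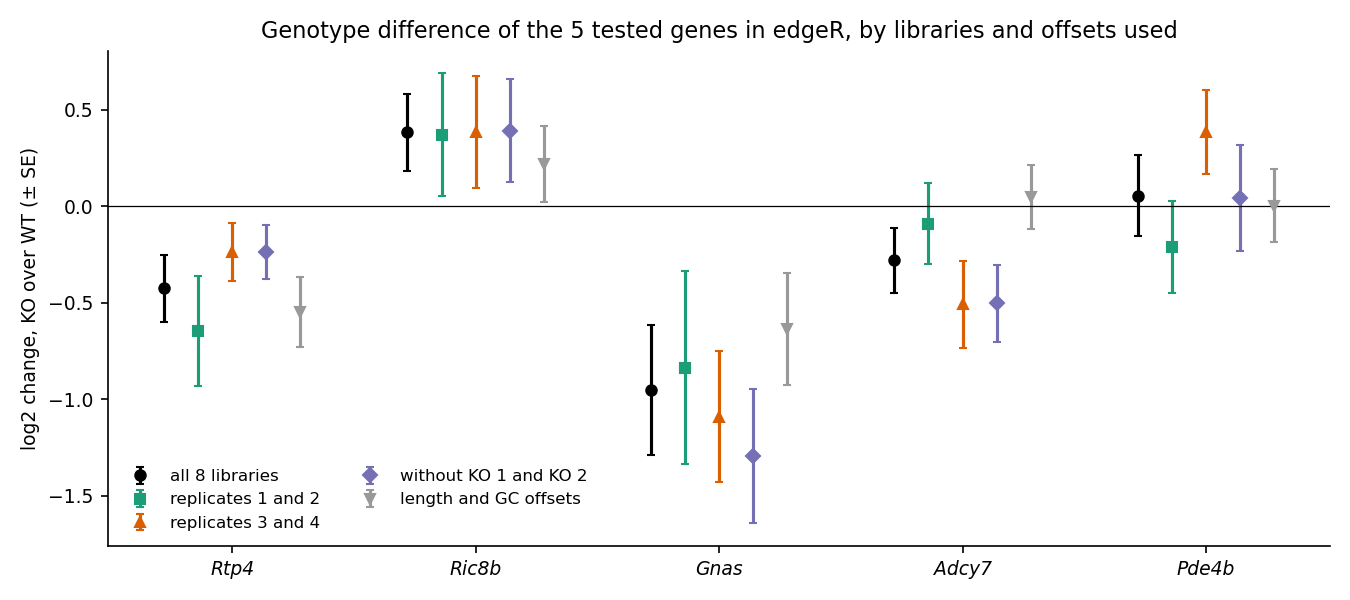
Log2 change of KO over WT, with SE, for the 5 tested genes in edgeR, from all 8 libraries, from each number series, without KO 1 and KO 2, and with offsets for transcript length and GC content. Rtp4 and Gnas stay below 0 and Ric8b above 0 in these 5 fits, while Adcy7 and Pde4b do not keep 1 sign.

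Rtp4 was set beside 34 other genes of a type I interferon list, since it belongs to that response. Centred on the mean of the 8 libraries, log2 Rtp4 was -0.04, -0.86, 0.03 and -0.06 in KO 1 to 4, against 0.37, 0.11, 0.08 and 0.36 in WT 1 to 4. The mean of the other 34 genes was -0.28, -0.78, 0.16 and 0.01 in KO 1 to 4, against 0.43, 0.26, -0.08 and 0.28 in WT 1 to 4. Both were lowest in KO 2 and highest in WT 1. Of the 35 tested genes of the list, 0 were called higher and 4 lower in KO by edgeR, where 1.06% of all tested genes were called, with a median log2 change of -0.41, beside -0.00 over all tested genes. Slfn5, an interferon-induced Schlafen gene, had 4.37 ± 0.249 CPM in KO and 14.4 ± 5.83 CPM in WT (SD, n = 4 each; log2 change -1.72 ± 0.30, edgeR adjusted p = 0.0341). Oas3, an antiviral oligoadenylate synthetase, had 2.63 ± 0.682 CPM in KO and 6.83 ± 1.41 CPM in WT (log2 change -1.37 ± 0.23, edgeR adjusted p = 0.0341). The other called genes were Bst2 (log2 change -0.71 ± 0.14, edgeR adjusted p = 0.0377) and Parp14, outside the naming rule and named after its value was seen (-1.10 ± 0.23, edgeR adjusted p = 0.0453). None of the 4 calls held without KO 1 and KO 2, with length and GC offsets or in limma-voom, fits that called 7, 1 and 0 of all tested genes. Without those 2 libraries, Slfn5 stood at -1.76 ± 0.42 (adjusted p = 0.122) and Oas3 at -1.42 ± 0.28 (0.0996), and with the offsets both had an adjusted p of 0.0711. DESeq2 called 7 of the 35 lower, where it called 325 higher and 459 lower of all tested genes. With the number series as covariate edgeR called 5 lower, against 101 higher and 150 lower of all tested genes. The 4 genes were among those called in both fits. Without KO 1 and KO 2 the median of the list was -0.03. In the lower series alone it was -0.70 and in the higher 0.11.

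Markers of other cells were set beside these values. The 8 nonclassical monocyte markers, all detected, summed to between 175 and 249 CPM in KO and between 259 and 336 CPM in WT. Those of plasmacytoid dendritic cells, strong interferon producers, summed to between 97.2 and 145 CPM in KO and between 189 and 229 CPM in WT, with 6 of 7 detected and Siglech at 0. Bst2, itself on the interferon list, averaged 124 ± 21.4 CPM in KO and 203 ± 18.4 CPM in WT of that sum (SD, n = 4 each). Without Bst2 the plasmacytoid markers summed to between 4.80 and 7.99 CPM in KO and between 5.73 and 8.27 CPM in WT, and the genotypes overlapped. Conventional dendritic cell markers, 7 of 7 detected, summed to 91.0, 69.1, 481 and 444 CPM in KO 1 to 4, against 181 to 400 CPM in WT. B cell markers, 5 of 7 detected, summed to between 204 and 362 CPM in KO and between 181 and 372 CPM in WT. The part of nonclassical monocytes or of these other cells in the Rtp4 values was not tested.

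**Figure D4:**
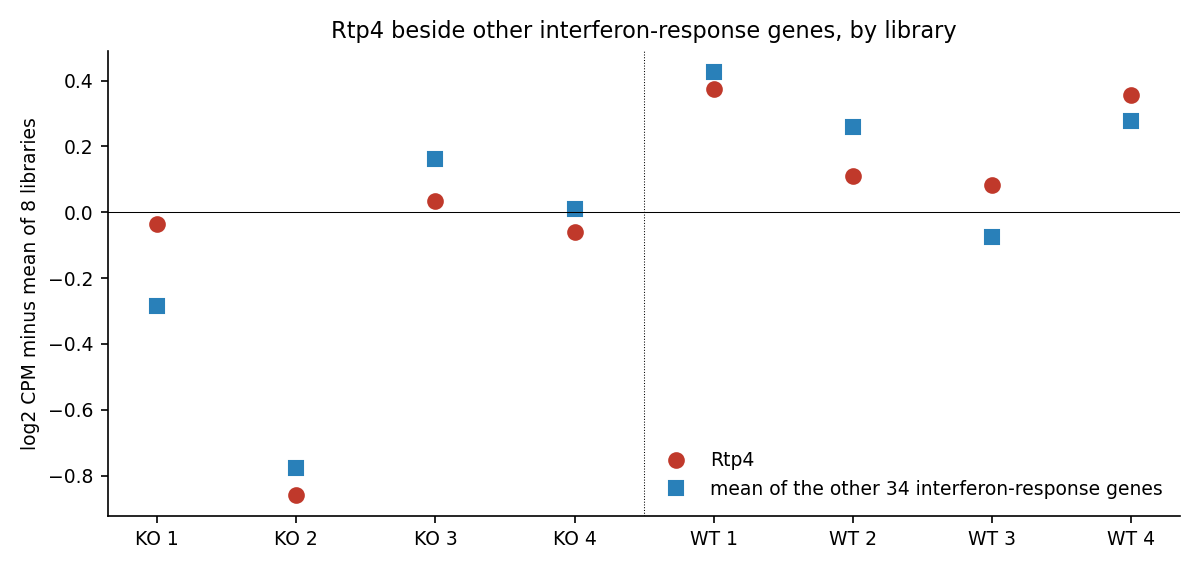
Log2 CPM minus its mean over the 8 libraries for Rtp4 (circles) and for the mean of 34 other interferon-response genes (squares), with KO libraries left of WT libraries. Both measures are lowest in KO 2, at -0.86 and -0.78, and highest in WT 1, at 0.37 and 0.43.

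Around the members, 86 other tested genes of the G protein and cAMP pathway gave 0 higher and 2 lower calls in KO by edgeR, beside the 1.06% called over all tested genes. DESeq2 called 2 higher and 9 lower of the 86, where it called 325 higher and 459 lower of all 11222 tested genes. By limma-voom 0 were called, both of the 86 and of all tested genes. Log2 changes were negative for 58 and positive for 28 of the 86, with a median of -0.16, where 5661 were negative and 5561 positive over all tested genes. With length and GC offsets, 55 of the 86 were negative and 31 positive, with a median of -0.08, beside -0.02 over all genes in that fit. Table-wide without offsets, the median log2 change was -0.34 in the highest decile of transcript length and -0.36 in the highest decile of GC content. The 2 genes called by edgeR were Gnb2 and Crebbp. Gnb2, a G protein beta subunit, had 122, 83.0, 83.8 and 95.5 CPM in KO 1 to 4, against 141, 148, 159 and 145 CPM in WT 1 to 4 (log2 change -0.62 ± 0.13, edgeR adjusted p = 0.0464). Crebbp, the acetyltransferase that CREB recruits, had 0.719, 1.23, 0.888 and 1.02 CPM in KO 1 to 4, against 3.49, 1.62, 4.70 and 5.27 CPM in WT 1 to 4 (log2 change -1.96 ± 0.36, edgeR adjusted p = 0.0341). All KO values of both genes lay below all WT values. Such a separation, in either direction, was found in 11.4% of all tested genes, and these 2 were named because they were called on the same values. Without KO 1 and KO 2, in a fit that called 7 of 11801 tested genes, the differences were as large but no longer called (Gnb2 -0.71 ± 0.14, edgeR adjusted p = 0.0996, and Crebbp -1.95 ± 0.46, 0.111). With length and GC offsets they were -0.27 ± 0.10 for Gnb2 and -1.25 ± 0.28 for Crebbp (edgeR adjusted p = 0.178 and 0.0923).

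The transport and olfactory signal list held 19 genes, of which 9 had 0 reads in every library, among them Rtp1 and Rtp2, the olfactory neuron's own receptor transporters, and the channel subunits Cnga2 and Cnga4. Of its 6 tested genes 0 were called, with a median log2 change of -0.09, and of 0.10 with length and GC offsets. Reep5, a membrane-shaping REEP protein, was the next most abundant after Rtp4, with 35.2% of the list's summed level per kilobase in KO and 29.8% in WT, where Rtp4 held 57.5 ± 7.42% in KO and 64.3 ± 4.55% in WT (SD, n = 4 each).

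By edgeR, no gene was called among the 8 tested alpha subunits, the 16 chaperones, kinases, arrestins and RGS proteins, the 6 phosphodiesterases, the 14 cAMP effectors, the 13 CREB target genes or the 11 Gs-coupled receptors. Their median log2 changes were -0.12, -0.13, -0.06, -0.26, -0.25 and -0.16 in that order. With length and GC offsets the medians were -0.03, -0.02, 0.02, -0.20, -0.13 and -0.14 in the same order. The receptor median was -0.57 in the lower and 0.43 in the higher number series, and 0.15 without KO 1 and KO 2. In the higher series the medians of the effectors and of the chaperone list were 0.05 and 0.03. DESeq2 called 1 alpha subunit, 2 genes of the chaperone list, 1 effector and 2 CREB targets, all lower in KO. Of all 11222 tested genes it called 325 higher and 459 lower. Among the beta and gamma subunits it called 2 higher, Gng2 among them (DESeq2 adjusted p = 0.0457), and 1 lower. Gnaq, the Gq alpha subunit, was at 1.02 ± 0.291 CPM in KO and 2.42 ± 0.326 CPM in WT (SD, n = 4 each; log2 change -1.24 ± 0.29, edgeR adjusted p = 0.0535). Grk3, a receptor kinase that also acts in olfactory neurons, was at 2.70 ± 0.988 CPM in KO and 5.93 ± 0.989 CPM in WT (log2 change -1.12 ± 0.26, edgeR adjusted p = 0.0569). Junb, an immediate early gene with cAMP response elements, was at 159 ± 57.0 CPM in KO and 313 ± 52.8 CPM in WT (log2 change -0.98 ± 0.26, edgeR adjusted p = 0.0932). DESeq2 called all 3, with adjusted p = 0.00699, 0.00440 and 0.00571 in that order, and the series covariate in edgeR called Gnaq and Grk3. That covariate fit called 251 of all tested genes. None of the 3 was called in limma-voom, without KO 1 and KO 2, or with length and GC offsets, fits that called 0, 7 and 1 of all tested genes. With the offsets Gnaq had -1.11 ± 0.26 (edgeR adjusted p = 0.103), Grk3 -0.80 ± 0.24 (0.138) and Junb -0.51 ± 0.26 (0.346). The lowest p among the phosphodiesterases was that of Pde8b (-0.49 ± 0.24, edgeR adjusted p = 0.264), among the effectors that of Akap9, an anchor of protein kinase A (-1.18 ± 0.33, 0.0805), and among the receptors that of Ramp1, a subunit of the CGRP receptor (-0.28 ± 0.15, 0.296). The next gene by p had an edgeR adjusted p of 0.0958 for Rgs14 in the chaperone list, 0.289 for Pde7b, 0.171 for Akap13, 0.116 for the CREB target Nr4a1 and 0.355 for the receptor Gpr65, with log2 changes of -0.64 ± 0.19, -0.69 ± 0.36, -0.73 ± 0.28, -0.73 ± 0.23 and 0.28 ± 0.17. Beside Gnb2 and Crebbp, the beta and gamma subunits had Gng2 at 0.45 ± 0.14 (edgeR adjusted p = 0.100) and the CREB coactivators Ep300 at -1.30 ± 0.31 (0.0569).

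**Figure D5:**
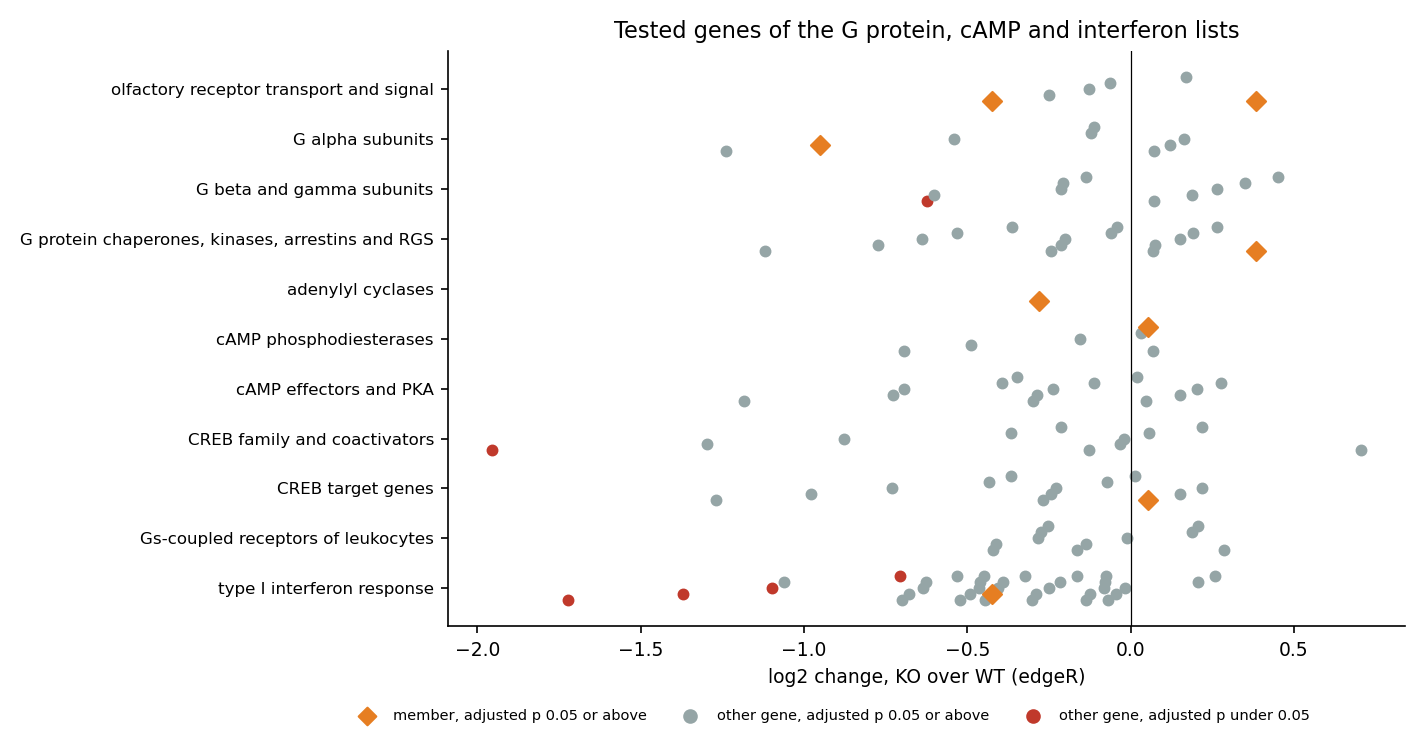
Log2 change of KO over WT in edgeR for the tested genes of each list, 1 point per gene, with members as diamonds and genes past an adjusted p of 0.05 in red. The red points are Gnb2, Crebbp and 4 interferon-response genes, all below 0, and no member is among them.

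The genes whose log2 CPM ran most like a member's over the 8 libraries are given as a description, since all points share the same libraries. Rtp4 was closest to Eif3g, Traf3 and Ogfr (Pearson r = 0.964, 0.963 and 0.958). Of its 100 nearest genes 9 belonged to the interferon list, which is also 9 of the 34 other genes of that list. Among the 100 nearest genes of Gnas, Ric8b, Adcy7 and Pde4b, 0 belonged to it in each case. Gnas ran closest to Kctd17, Rbck1 and Ccdc61 (r = 0.984, 0.976 and 0.973), and Ric8b to Wars2, Zmynd19 and Lrrcc1 (0.975, 0.942 and 0.939). Adcy7 was closest to Fkbp8, Pgp and Dalrd3 (0.987, 0.985 and 0.977), and Pde4b to Zfp874b, Banp and Zfp407 (0.992, 0.954 and 0.951).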

How the data were processed

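Per the labels' protocols, monocyte RNA was reverse transcribed from oligo-dT primers (SMART-Seq v4 kit). The deposited file holds raw counts of reads for each gene, made with HISAT2 2.0.5 and featureCounts 1.5.0-p3 on GRCm38, per the submitters' processing notes; the strand setting is not given in the sources used here. Groups came from the genotype labels. Counts were fitted with edgeR 4.0.16 (R 4.3.3; filterByExpr, 11222 genes kept; TMM; robust quasi-likelihood test; Benjamini-Hochberg over all tested genes), after a check on simulated data. Alternatives used DESeq2 1.42.0, limma 3.58.1 and offsets from mgcv 1.9.3. Exon lengths and overlaps came from GENCODE M21. The members and lists were chosen with earlier results of these data known. CPM over TMM-scaled sizes follows the normalization of the fit, but it was made the printed scale after CPM over plain library totals had also been computed, and the overlap of libraries and the values that stand apart differ between the scales; both are given. The rule for named genes took up to 3 called genes of each list, else the 2 of smallest p; exact permutation tests cover untested members only. Same-numbered libraries had correlations between -0.0494 and 0.0926, and differently numbered ones between -0.147 and 0.129. With 4 libraries per genotype this shows no pairing by number but cannot exclude one. No 2 libraries agreed within sampling noise.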

Additional observations from a re-analysis of the deposited data

Results flagged for a closer look

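In 10 groups of 4 values (5 tested genes, both genotypes), 3 held a library far from the rest by Dixon's criterion, which chance alone meets in about 1 group in 20. Rtp4 stood apart in KO 2, at 210 CPM. Gnas stood apart in KO 1, at 2.99 CPM, and in WT 2, at 4.37 CPM. The outcome depends on the scale: over plain library totals 1 value stood apart, Adcy7 in WT 4 at 12.5 CPM, and none of the 3 did. The scale printed here was chosen after both had been computed.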

How the results depend on the processing

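No member was called under any alternative. The number of all genes called, 119, moved to 742 with no filter on low counts, 784 in DESeq2, 0 in limma-voom, 251 with the number series as covariate, 1 with length and GC offsets and 7 without KO 1 and KO 2, and ran from 0 (without KO 2, KO 3, WT 1 or WT 3) to 515 (without WT 2) when 1 library at a time was left out, with 3 without WT 4, 64 without KO 1 and 235 without KO 4. The fit with a replicate block called 244, though no label says that the numbers pair the libraries. Of the pathway genes other than members, 2 were called, against 11 in DESeq2 and 0 in limma-voom (both added after seeing the data), 5 with the series covariate, 0 without KO 1 and KO 2 and 0 with the offsets. The interaction called 88 genes, and 451 in DESeq2. The members with no overlap between genotypes numbered 2, and 0 over plain library totals, an alternative added after seeing the data. Adcy7 reversed to 0.046 with the offsets. Pde4b reversed to -0.21 in the lower number series, and ran from -0.11 to 0.31 with 1 library left out. Over 19 alternatives Gnas ranged from -1.39 to -0.64 (adjusted p 0.0515 to 0.394), Rtp4 from -0.65 to -0.24 (0.0622 to 0.435) and Ric8b from 0.22 to 0.45 (0.267 to 0.600). The causes of these shifts were not tested. Gnal, Adcy3, Adcy6, Adcy9 and Pde4d had at most 13 reads in a library, too few at this depth for the edgeR fit.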
